A study of Homo sapiens with 8 samples.

Results

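DNA replication and nucleotide supply genes were followed in SJRH30 cells, a human alveolar rhabdomyosarcoma line, before hypoxia and through the first day in 1% oxygen. The set was defined as 44 genes, and every probe set annotated with 1 of these symbols alone was taken, which gave 69 of the 22277 probe sets on the arrays. All 44 genes were measured, among 11963 genes in all. Of these, 26 had 1 probe set and 18 had several, up to 4, and for these the gene's brightest probe set by mean was used. The groups were cells before hypoxia (0 h) and cells after 6, 12 and 24 h at 1% oxygen, each with 2 arrays that the labels call biological replicates. No agent other than low oxygen was named, and all arrays came from the same line. The later times had no normoxic counterpart here, so hours in culture and hours in hypoxia cannot be told apart. The labels give the cell type as muscle fibroblasts. Checked against defining markers, 8 of 9 muscle and tumour markers lay in the brighter 50% of genes (all but MYF5), as did 2 of 8 fibroblast markers (COL3A1 and COL1A1). Brightness also depends on the probes, so these counts are a rough check of the label.

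Replication starts when the origin recognition complex (ORC) and CDC6 load the MCM helicase onto DNA, after which CDC45 and the GINS complex activate it. Primase and DNA polymerase alpha lay the first stretch, the clamp PCNA and its loader RFC carry the main polymerases forward, and RPA shields single-stranded DNA. Deoxynucleotides come from ribonucleotide reductase (RRM1 and RRM2), thymidylate synthase (TYMS) and salvage by thymidine kinase (TK1). Many of these genes are known to be transcribed in late G1 and S phase under E2F transcription factors. Ribonucleotide reductase needs oxygen to form the radical it works with.

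Because the best-known regulators of this group are the E2F factors, the stretches before the start sites of members that passed a test are shown first, with matches to E2F-type letters in capitals. The letters searched were TTTCCCGC, TTTGGCGC, TTTCGCGC and TTTGCCGC, on both strands, in the 250 bases before each start site in RefSeq (build GRCh38.p14). The stretch of MCM6 lies at chr2:135876444-135876603 on the minus strand, that of DUT at chr15:48332137-48332196 (plus), and that of POLA1 at chrX:24693768-24693917 (plus). Those of POLA2 and RFC3 lie at chr11:65261882-65261961 and chr13:33818069-33818148, both on the plus strand. Each runs 5′ to 3′ and ends at the base before the start site. In MCM6 matches on the 2 strands overlap, so each capital run there holds 2 matches. DUT has 4 windows, from separate start sites, and the one with matches is shown.
MCM6: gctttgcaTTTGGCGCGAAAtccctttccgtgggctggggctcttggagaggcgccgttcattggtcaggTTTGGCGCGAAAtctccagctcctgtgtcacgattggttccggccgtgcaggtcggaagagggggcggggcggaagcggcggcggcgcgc
DUT: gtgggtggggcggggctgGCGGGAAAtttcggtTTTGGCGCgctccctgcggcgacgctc
POLA1: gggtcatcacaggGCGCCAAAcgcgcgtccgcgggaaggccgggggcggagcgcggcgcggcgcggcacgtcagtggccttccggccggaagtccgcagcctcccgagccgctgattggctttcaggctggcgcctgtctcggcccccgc
POLA2: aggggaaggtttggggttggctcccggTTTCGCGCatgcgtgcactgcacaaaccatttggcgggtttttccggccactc
RFC3: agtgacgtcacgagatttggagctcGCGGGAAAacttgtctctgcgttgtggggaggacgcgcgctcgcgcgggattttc

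Of the 40 members with a window in the table, 15 (37.5%) held at least 1 such match, against 5.18% of 9563 tested genes with a window. Counted by window, since some genes have several, matches stood in 15 of 54 windows of members (27.8%) and in 3.73% of those of tested genes. The letters were present both in members that were higher at 24 h than at 0 h (MCM6, DUT, POLA1) and in members that were lower at 12 h (POLA2, RFC3). Among the 15 members with a match, 5 passed at least 1 test, and among the 25 without one, 9 did. TK1, the member with the largest change, had no such match, and its stretch is shown for its 2 CCAAT boxes, in capitals as the reverse complement ATTGG. It lies at chr17:78187053-78187152 on the minus strand, 1 of 2 windows of the gene. The letters CCAAT were found in 25 of the 40 members (62.5%) and in 42.4% of the tested genes. Hypoxia-inducible factors bind a core whose letters ACGTG were found in 14 members (35%), against 27.1% of the tested genes. Such matches describe the sequence only.
TK1: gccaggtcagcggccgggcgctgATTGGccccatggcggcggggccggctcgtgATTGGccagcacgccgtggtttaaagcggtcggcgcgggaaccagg

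Values are log2 probe set summaries, so a difference of 1 is a 2-fold change, and levels of different genes are not compared. A gene is called where the limma test over all 11963 genes gave an adjusted p under 0.05 in a fit of all 8 arrays. The arrays read RNA of whole cultures, in which more or fewer cells in S phase and more or less RNA per cell cannot be told apart. The changes in the group were small. The largest against 0 h was 1.36-fold (TK1 at 24 h), and the median standard error of a member's change was 0.06. At 6 h 0 of 44 members were called, at 12 h 1 was higher and 6 were lower, and at 24 h 10 were higher and 1 was lower. Over all genes, 2.32% were called higher and 1.22% lower at 6 h, 7.13% and 11.3% at 12 h, and 8.59% and 9.15% at 24 h. The members' share at 24 h was 22.7% higher and 2.27% lower. At 12 h it was 2.27% higher and 13.6% lower, the last close to the share of all genes. The brighter 50% of genes held 43 of the members. Of these brighter genes, 12.9% were called higher and 14.4% lower at 24 h, and 10% and 18% at 12 h. The F-test over the 3 comparisons with 0 h called 7 members (ORC2, MCM6, PRIM1, RPA1, TK1, FEN1 and CHAF1B), or 15.9%, against 16.2% of all genes. In 1 or more of the 7 tests 17 members (38.6%) were called and 27 were not, against 25% of all genes and 36.7% of the brighter 50% of genes called.

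**Figure D1:**
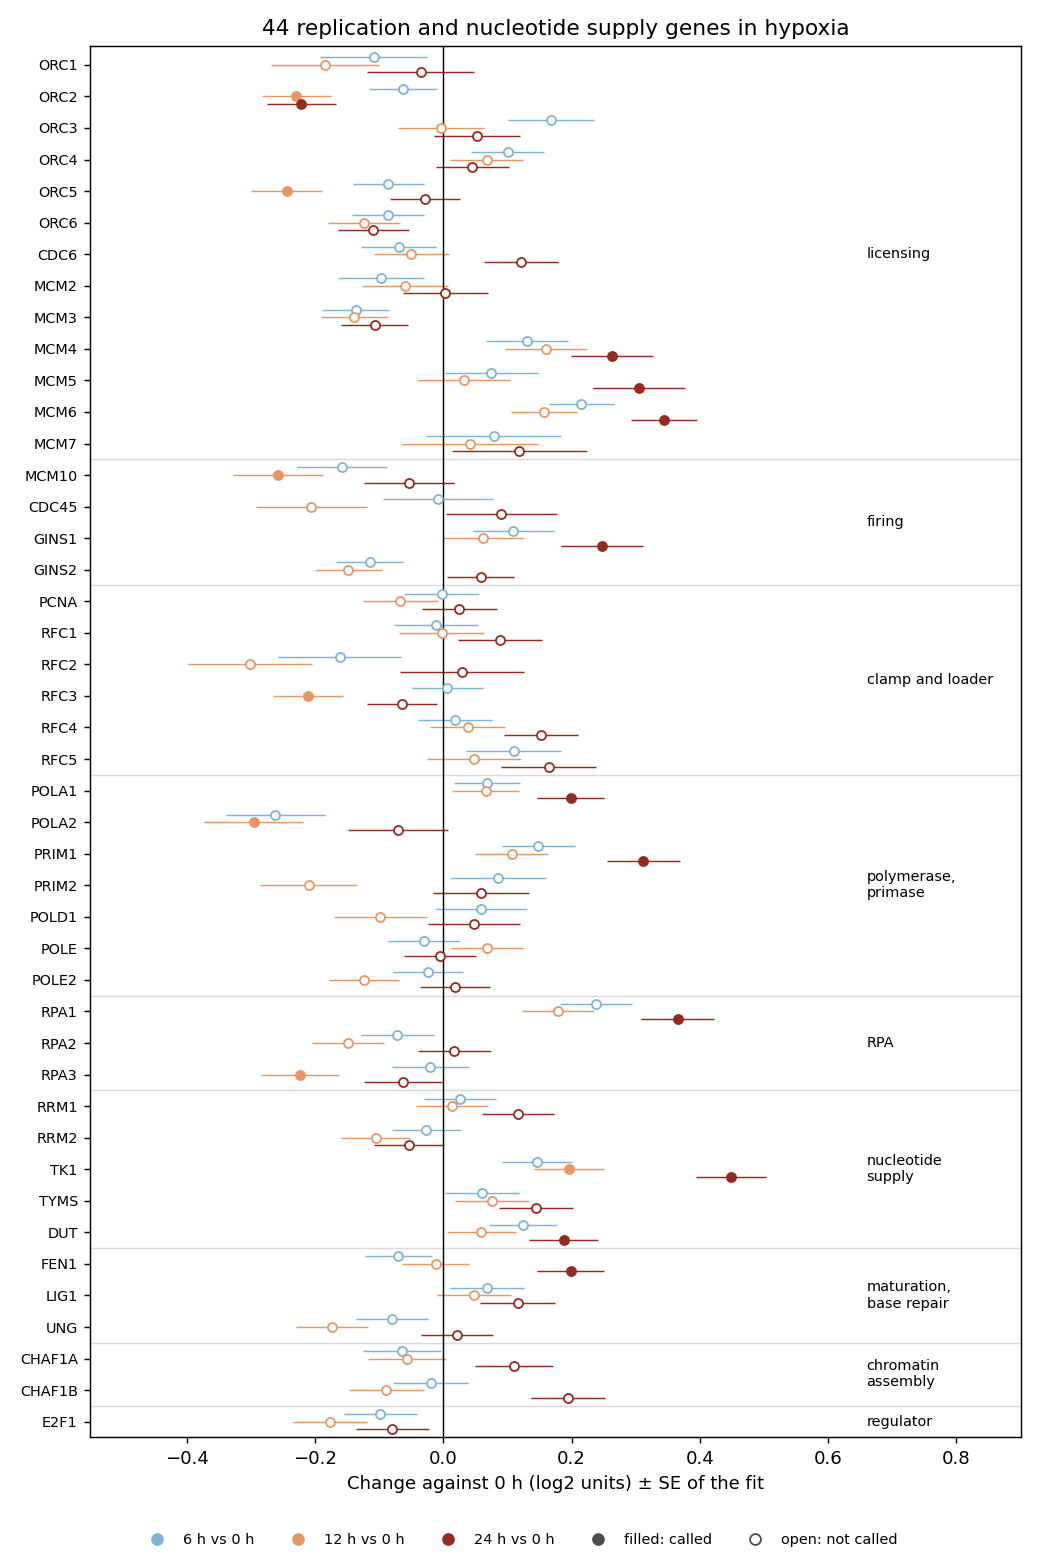
Change of each of the 44 genes at 6, 12 and 24 h against 0 h, in log2 units on the horizontal axis, with bars for the standard error of the fit and filled points for calls. Genes are grouped by role. The 24 h points of TK1 (0.45), RPA1 (0.37), MCM6 (0.34), PRIM1 (0.31) and MCM5 (0.31) lie farthest to the right, and filled 12 h points lie left of 0 except that of TK1.

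Among the nucleotide supply genes, TK1 and DUT rose at 24 h, while TYMS, RRM1 and RRM2 were not called at any time. TK1 (probe set 202338_at), the thymidine salvage kinase, read 8.76 and 8.80 at 0 h, 8.91 and 8.94 at 6 h, 8.98 and 8.97 at 12 h, and 9.20 and 9.26 at 24 h. Each time lay above the one before with no overlap of arrays. The mean was 9.23 ± 0.04 at 24 h and 8.78 ± 0.03 at 0 h (SD, n = 2 each), a log2 change of 0.45 ± 0.05 (SE, adjusted p = 0.00177). TK1 was also higher at 12 h (0.20 ± 0.05, adjusted p = 0.0437), a call that was missed with every probe set tested on its own (adjusted p = 0.0564). DUT, which removes dUTP so that uracil stays out of DNA, read 12.22 and 12.22 at 0 h, 12.35 and 12.34 at 6 h, 12.27 and 12.28 at 12 h, and 12.44 and 12.37 at 24 h. Its rise of 0.19 ± 0.05 lay just inside the threshold (adjusted p = 0.0485). With every probe set tested on its own, another probe set of DUT (208955_at) was called (0.37 ± 0.09, adjusted p = 0.027), while the main one (adjusted p = 0.0658) and the remaining one (0.19, adjusted p = 0.181) were not.

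TYMS, which makes thymidylate, read 12.70 and 12.66 at 0 h, 12.77 and 12.71 at 6 h, 12.74 and 12.77 at 12 h, and 12.79 and 12.86 at 24 h. All its hypoxic arrays lay above those of 0 h, by 0.14 ± 0.06 at 24 h (adjusted p = 0.134). RRM1, the large subunit of ribonucleotide reductase, read 11.90 and 11.89 at 0 h, 11.91 and 11.93 at 6 h, 11.90 and 11.92 at 12 h, and 12.06 and 11.97 at 24 h (0.12 ± 0.06 against 0 h, adjusted p = 0.208). RRM2, the small subunit that carries the radical, read 12.86 and 12.88 at 0 h, 12.87 and 12.83 at 6 h, 12.78 and 12.75 at 12 h, and 12.79 and 12.85 at 24 h. Its arrays at 12 and 24 h lay below those of 0 h, by 0.05 ± 0.05 at 24 h (adjusted p = 0.569), and no difference from 0 h was called for either subunit. Second probe sets differed in direction, also without a call. That of RRM2 stood at 0.02 at 24 h. That of RRM1 stood at -0.03 at 24 h and at -0.19 at 12 h (adjusted p = 0.065 with every probe set tested on its own).

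In the licensing group of 13 genes, 3 were called higher and 1 lower at 24 h. Of the 6 subunits of the MCM helicase, MCM4, MCM5 and MCM6 rose at 24 h and MCM2, MCM3 and MCM7 were not called. MCM6 (201930_at) read 10.82 and 10.84 at 0 h, 11.05 and 11.04 at 6 h, 10.98 and 11.00 at 12 h, and 11.18 and 11.17 at 24 h. Both 24 h arrays stood above all others and both 0 h arrays below all others, with a change of 0.34 ± 0.05 at 24 h (adjusted p = 0.00405). MCM5 read 9.27 and 9.34 at 0 h, 9.34 and 9.42 at 6 h, 9.34 and 9.34 at 12 h, and 9.52 and 9.70 at 24 h (0.31 ± 0.07, adjusted p = 0.0249). MCM4 read 10.31 and 10.24 at 0 h, 10.34 and 10.47 at 6 h, 10.44 and 10.43 at 12 h, and 10.57 and 10.51 at 24 h (0.26 ± 0.06, adjusted p = 0.0278). Both genes were highest at 24 h on both arrays. Of the 3 further probe sets of MCM4, 222037_at was called at 24 h (0.43 ± 0.07, adjusted p = 0.00649) and the other two, at 0.20 and 0.08, were not. The second probe set of MCM5 stood at 0.12 and was not called.

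MCM2 read 11.21 and 11.20 at 0 h, 11.08 and 11.13 at 6 h, 11.16 and 11.14 at 12 h, and 11.13 and 11.29 at 24 h. MCM7 read 10.50 and 10.42 at 0 h, 10.51 and 10.56 at 6 h, 10.50 and 10.50 at 12 h, and 10.40 and 10.75 at 24 h. The 2 arrays of 24 h lay on either side of the 0 h arrays for both genes, and the adjusted p values at 24 h were 0.98 and 0.509. The second probe set of MCM7 stood at 0.18 ± 0.06 at 24 h. It was not called (adjusted p = 0.0785 with every probe set tested on its own). MCM3 was below 0 h on all 6 hypoxic arrays, by 0.11 ± 0.05 at 24 h (adjusted p = 0.211). CDC6, which with ORC loads the helicase, read 9.02 and 9.10 at 0 h, 8.98 and 9.00 at 6 h, 9.03 and 8.99 at 12 h, and 9.14 and 9.22 at 24 h. Its 24 h arrays lay above all others, by 0.12 ± 0.06 over 0 h (adjusted p = 0.205).

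ORC2, a subunit of the origin recognition complex, was the only member called lower at 24 h, where 12 of 44 members had a change below 0. ORC2 read 8.54 and 8.58 at 0 h, 8.51 and 8.48 at 6 h, 8.32 and 8.34 at 12 h, and 8.36 and 8.31 at 24 h. Both later times lay below both earlier ones, with changes of -0.23 ± 0.05 at 12 h (adjusted p = 0.0243) and -0.22 ± 0.05 at 24 h (adjusted p = 0.0273). ORC5 was lower at 12 h (-0.24 ± 0.05, adjusted p = 0.0215), where a second probe set of ORC5 was also called (-0.32, adjusted p = 0.0247), and stood at -0.03 at 24 h. ORC1, ORC3, ORC4 and ORC6 were not called, with changes from -0.11 (ORC6) to 0.05 (ORC3) at 24 h.

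Of the 4 genes that activate the helicase, GINS1 rose at 24 h and MCM10 fell at 12 h. GINS1, a subunit of the GINS complex, read 11.23 and 11.16 at 0 h, 11.32 and 11.29 at 6 h, 11.22 and 11.29 at 12 h, and 11.50 and 11.39 at 24 h (0.25 ± 0.06, adjusted p = 0.0339). MCM10 read 9.72 and 9.90 at 0 h, 9.62 and 9.68 at 6 h, 9.57 and 9.54 at 12 h, and 9.77 and 9.74 at 24 h. It was 0.26 ± 0.07 below 0 h at 12 h (-0.26 on the log2 scale, adjusted p = 0.0409), and its 24 h arrays lay between the 2 arrays of 0 h. GINS2 and CDC45 were not called, and both had their lowest mean at 12 h and their highest at 24 h.

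Primase and polymerase alpha form 1 complex, and its subunits differed in their calls. PRIM1, the catalytic primase subunit, read 10.03 and 10.05 at 0 h, 10.18 and 10.20 at 6 h, 10.13 and 10.16 at 12 h, and 10.40 and 10.30 at 24 h. It rose by 0.31 ± 0.06 at 24 h (adjusted p = 0.00947), with every hypoxic array above both 0 h arrays. POLA1, the catalytic polymerase subunit, read 8.85 and 8.86 at 0 h, 8.91 and 8.94 at 6 h, 8.92 and 8.92 at 12 h, and 9.08 and 9.04 at 24 h (0.20 ± 0.05, adjusted p = 0.0354). POLA2, the accessory subunit, read 8.74 and 8.74 at 0 h, 8.43 and 8.53 at 6 h, 8.45 and 8.44 at 12 h, and 8.57 and 8.78 at 24 h. Its fall of 0.30 at 12 h was called (-0.30 ± 0.08, adjusted p = 0.0356), its difference of -0.26 at 6 h was not (adjusted p = 0.118), and its 24 h arrays spread around the 0 h values. PRIM2, POLD1, POLE and POLE2 were not called at any time. PRIM2, the regulatory primase subunit, was the 1 member in the dimmer 50% of genes.

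**Figure D2:**
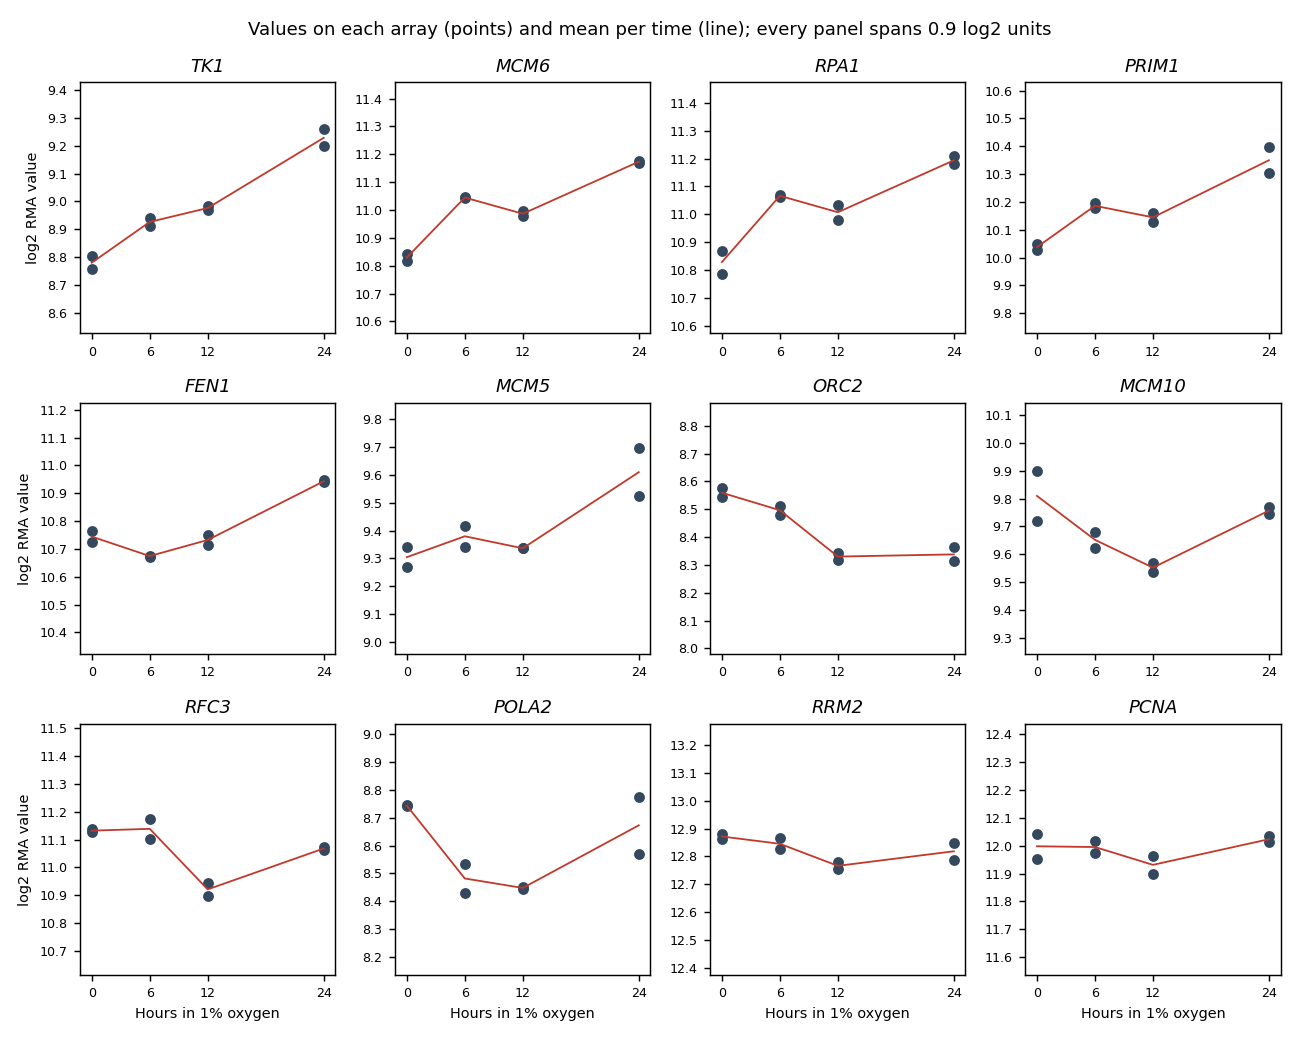
Log2 values of 12 members on each of the 8 arrays (points) against hours in 1% oxygen, with a line through the means and panels of equal height. TK1, MCM6, RPA1, PRIM1, FEN1 and MCM5 are highest on both 24 h arrays, and ORC2 is low at 12 and 24 h. MCM10, RFC3 and POLA2 have their lowest mean at 12 h, and PCNA shows no steady course.

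The clamp and its loader held no member that was called at 24 h. PCNA read 11.95 and 12.04 at 0 h, 12.02 and 11.98 at 6 h, 11.96 and 11.90 at 12 h, and 12.01 and 12.03 at 24 h (0.03 ± 0.06 at 24 h, adjusted p = 0.821). RFC3, a loader subunit, read 11.14 and 11.13 at 0 h, 11.17 and 11.10 at 6 h, 10.94 and 10.90 at 12 h, and 11.07 and 11.06 at 24 h. It fell at 12 h (-0.21 ± 0.05, adjusted p = 0.0346) and was below 0 h by 0.06 at 24 h without a call. RFC2 had the most negative change of all members at 12 h, -0.30 ± 0.10 (adjusted p = 0.0679), and its second probe set (1053_at) was called there (-0.35 ± 0.09, adjusted p = 0.0347 with every probe set tested on its own). RFC1, RFC4 and RFC5 were not called, with changes between 0.09 and 0.16 at 24 h.

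Of the 3 subunits of RPA, 1 was called higher at 24 h and another lower at 12 h, and no test compared them. RPA1, the large subunit that grips single-stranded DNA, read 10.87 and 10.79 at 0 h, 11.07 and 11.06 at 6 h, 10.98 and 11.03 at 12 h, and 11.21 and 11.18 at 24 h. All hypoxic arrays lay above both 0 h arrays, and the rise was called at 24 h (0.37 ± 0.06, adjusted p = 0.00494) but not at 6 h (0.24, adjusted p = 0.0687) or 12 h (0.18, adjusted p = 0.0658). RPA3, the small subunit, read 10.73 and 10.75 at 0 h, 10.71 and 10.73 at 6 h, 10.49 and 10.55 at 12 h, and 10.74 and 10.62 at 24 h, with a fall at 12 h (-0.22 ± 0.06, adjusted p = 0.039). RPA2 was not called. The second probe set of RPA1 stood at 0.22 at 24 h and was not called (adjusted p = 0.146).

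Of the genes that mature and repair new strands, FEN1, the nuclease that trims Okazaki fragments, read 10.76 and 10.72 at 0 h, 10.68 and 10.67 at 6 h, 10.75 and 10.71 at 12 h, and 10.94 and 10.95 at 24 h. Both 24 h arrays stood above the other 6, with a rise of 0.20 ± 0.05 over 0 h (adjusted p = 0.0364). With every probe set tested on its own, this one missed the threshold (adjusted p = 0.0505), and the second probe set of FEN1 (204768_s_at) stood at 0.10 ± 0.07 (adjusted p = 0.44) without a call. The ligase LIG1 and the uracil glycosylase UNG were not called. CHAF1B, a subunit of the factor that places histones on new DNA, read 7.26 and 7.34 at 0 h, 7.28 and 7.28 at 6 h, 7.25 and 7.17 at 12 h, and 7.49 and 7.50 at 24 h. It passed the F-test (adjusted p = 0.0478) and not the comparison of 24 h with 0 h (0.19 ± 0.06, adjusted p = 0.0572). CHAF1A was not called in its main probe set, and another of its probe sets (203975_s_at) was called lower at 12 h (-0.26, adjusted p = 0.0391). E2F1 read 8.72 and 8.74 at 0 h, 8.58 and 8.68 at 6 h, 8.54 and 8.56 at 12 h, and 8.66 and 8.64 at 24 h. All its hypoxic arrays lay below both 0 h arrays, with no call (adjusted p = 0.0695 at 12 h and 0.402 at 24 h).

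Most members were higher at 24 h than at 12 h, each by a small amount. The change was above 0 for 42 of 44 members with a median of 0.15, against 50.5% of all genes and 63.6% of the brighter 50% of genes above 0. Both 24 h arrays lay above both 12 h arrays for 37 members (84.1%), against 24.5% of all genes, and below them for 1 (POLE), against 20.8%. No member was called over all genes by limma, where 0.184% of genes were called higher and 0.0585% lower, while 24 members (54.5%) were higher at an unadjusted p under 0.05 and none lower, against 9.8% of all genes higher at that threshold. The largest of these differences were in RFC2 (0.33 ± 0.10, adjusted p = 0.164), CDC45 (0.30), CHAF1B (0.28), MCM5 (0.27) and PRIM2 (0.27), none of them called. The direction of the list held in every alternative, with medians between 0.11 and 0.16. The lowest, 0.11, came with each array centred on its median and with further quantile normalization, where 39 of 44 were above 0.

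Against 6 h, TK1 and FEN1 were called higher at 24 h, by 0.30 ± 0.05 (adjusted p = 0.0361) and 0.27 ± 0.05 (adjusted p = 0.0425), and 1.85% of all genes were called higher and 0.936% lower. Neither gene was called against 6 h without any 1 of the 0, 6 or 24 h arrays, and FEN1 not without either 12 h array. Both 24 h arrays lay above both 6 h arrays for 26 members and below them for 3, against 23.9% and 24.1% of all genes. From 6 to 12 h no member was called, against 0.142% of genes higher and 0.0585% lower, and 6 members (13.6%) were lower at an unadjusted p under 0.05 and none higher, against 11.6% of all genes lower. There both 12 h arrays lay below both 6 h arrays for 25 members and above them for 4, against 30.3% and 27% of all genes. Among the brighter genes, the median change from 6 to 12 h was -0.05, and also -0.05 for the 43 members there. Of these 43 members, 10 were above 0, against 33.6% of the brighter genes.

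Without overlap, 14 members lay above 0 h and 17 below it at 6 h (23.6% and 31.6% of all genes), 13 above and 21 below at 12 h (29.6% and 34.2%), and 23 above and 7 below at 24 h (26.6% and 32.3%). At 6 h, where limma called 0 members, 8 (18.2%) had an unadjusted p under 0.05, against 19.2% of all genes. The 24 h mean was the highest of the 4 times for 28 members (63.6%), against 24% of all genes and 27.7% of the brighter 50%. The 12 h mean was the lowest for 22 members (50%), against 28% of all genes and 37.8% of the brighter 50%.

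The members' median at 12 h was close to that of other bright genes. The 12 h arrays had a narrower spread of values, with interquartile ranges of 3.83 and 3.77 against 3.91 and 3.92 at 0 h, and 43 of the 44 members lay in the brighter 50% of genes. The median change at 12 h was -0.06 for the members and -0.06 for the 5981 genes of the brighter 50%. In the brightest 25% of genes, which hold 28 members, the medians at 12 h were -0.003 for the members and -0.05 for all genes, and in the next 25%, with 15 members, -0.10 and -0.07. Members and brighter genes had medians of 0.06 and -0.02 at 24 h, and of 0.15 and 0.03 from 12 to 24 h. The part of brightness and of the array spread in these values was not tested. With further quantile normalization 3 members were called higher and 2 lower at 12 h, and with each array centred on its median 1 higher and 2 lower, in place of 1 and 6. Of all genes 16.9% and 17.6% were called at 12 h with these scalings, in place of 18.4%.

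**Figure D3:**
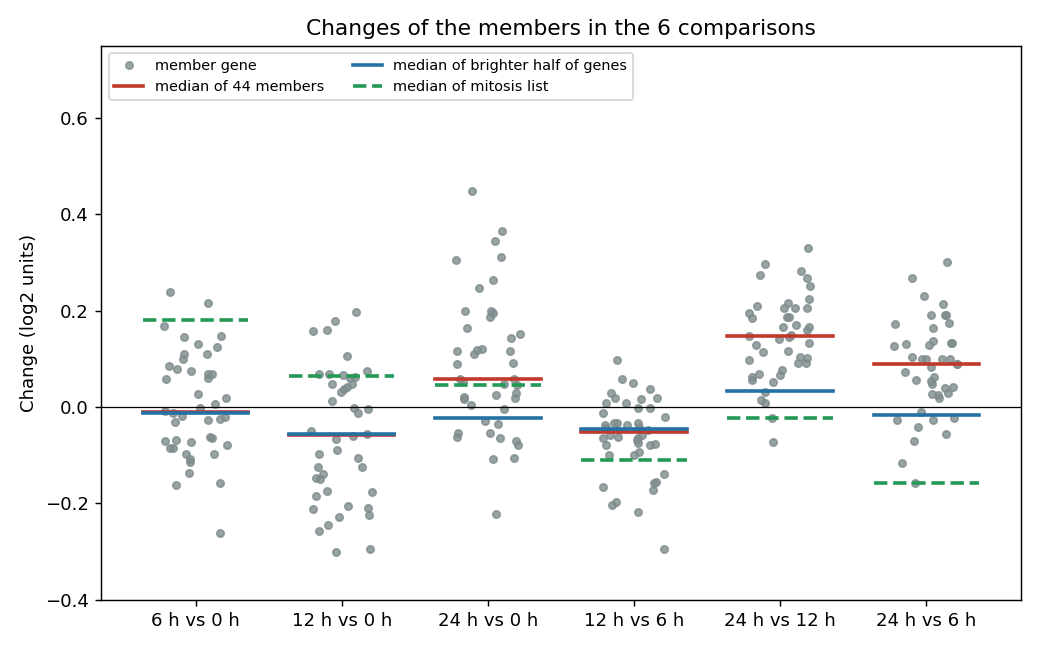
Change of each of the 44 members (grey points) in the 6 comparisons, in log2 units, with medians of the members (red), of the brighter 50% of genes (blue) and of 29 mitosis genes (green, dashed). The red and blue lines nearly coincide at 6 and 12 h against 0 h and stand apart at 24 h (0.06 and -0.02 against 0 h, 0.15 and 0.03 against 12 h).

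The calls at 24 h and 12 h rested on few arrays. Leaving out any 1 array leaves a time with 1 array, so the members' median change is given for these fits. It ran from 0.04 to 0.08 at 24 h and from -0.07 to -0.04 at 12 h. Fewer members were called at 24 h in each of these fits, and at 12 h without any 0, 6 or 12 h array. Calls over all genes dropped in most of these fits too, though not at 24 h without a 12 h array. Without 12 h replicate 1 their share at 12 h stayed near the reported one. TK1 and MCM6 were called at 24 h in 17 of 17 gene-level alternatives, RPA1 in 16, PRIM1 in 15, MCM4 and MCM5 in 13, ORC2 in 11, GINS1 in 9, DUT in 7, POLA1 in 6 and FEN1 in 5.

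Genes of the same processes outside the set were examined next. Of 32 other measured replication genes 3 rose and 2 fell at 24 h (9.38% and 6.25%, against 8.59% and 9.15% of all genes). The risers were the polymerase delta subunit genes POLD4 (0.48) and POLD3 (0.24) and the histone chaperone gene ASF1B (0.27). Its paralog ASF1A (-0.48) and TIPIN (-0.24), which steadies replication forks, fell. At 12 h 0 rose, against 7.13% of all genes, and 5 fell (15.6%, against 11.3%), among them GINS3 (-0.43) and POLE3 (-0.33). The median of this list was -0.02 at 24 h, against -0.01 for all genes.

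Of 29 other measured nucleotide synthesis genes 5 rose and 2 fell at 24 h (17.2% and 6.9%, against 8.59% and 9.15% of all genes). The purine salvage enzyme gene HPRT1 (0.58), the guanylate kinase gene GUK1 (0.54), PRPS2 (0.26) and PFAS (0.23) showed the largest rises. UMPS (-0.29), the last enzyme of de novo UMP synthesis, and SAMHD1 (-0.27), which breaks down deoxynucleotides, fell. Of 26 measured G1/S regulators 2 (7.69%) were lower at 6 h, CDKN1A (-0.45) and CDC25A (-0.35), against 1.22% of all genes. At 12 h 6 were lower (23.1%, against 11.3%). At 24 h CDK2 was higher (0.21) and CDC25A lower (-0.26), each 3.85% of the list, against 8.59% and 9.15% of all genes. CDKN1A encodes a kinase inhibitor that also binds PCNA, and CDC25A a phosphatase that activates CDK2. Of 10 measured replication checkpoint genes CHEK2 rose (0.38) and HUS1 fell (-0.49) at 24 h, each 10% of the list.

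Mitosis genes are set beside the members with no test between the lists. Of 29 measured, 7 (24.1%) rose at 6 h, against 2.32% of all genes. At 12 h 7 rose (24.1%, against 7.13%) and 1 fell (3.45%, against 11.3%). At 24 h 4 rose (13.8%, against 8.59%) and 1 fell (3.45%, against 9.15%). The median of the mitosis genes was 0.18 at 6 h, 0.06 at 12 h and 0.05 at 24 h, beside -0.01, -0.06 and 0.06 for the replication members. From 12 to 24 h 12 of 29 mitosis genes were above 0, beside 42 of 44 members. So were 25 of 32 other replication genes and 24 of 29 other nucleotide synthesis genes. Of the G1/S regulators 18 of 26 were above 0, and of the replication checkpoint genes 6 of 10. The medians of these 4 lists were 0.07, 0.07, 0.13 and 0.03, beside 0.15 for the members. At 24 h HMMR (0.50), BUB1 (0.28), AURKA (0.23) and CCNB2 (0.22) were called higher and FOXM1 (-0.23) lower. The arrays of different times also differed in control RNAs. The mean of the probe sets for poly-A control RNA was 8.32 and 8.36 at 0 h. It was 8.81 and 8.79 at 6 h, 8.76 and 8.76 at 12 h, and 8.96 and 9.01 at 24 h. For the hybridization controls the mean was 10.05 and 10.07 at 0 h, and between 10.24 and 10.31 on the later arrays. The part of these control differences in the small changes was not tested.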

How the data were processed

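The authors deposited log2 probe set values of 8 arrays made with RMA, per the submitters' processing notes. Its version was not given in the sources used here. RMA makes array distributions alike, so each change is relative to the other transcripts of its array. The labels' protocols give 10 µg of total RNA per labelling. Depth does not apply to arrays, and their number limits the precision. p-values measure the spread between replicates, whose separate cultures are not described.

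Gene symbols came from GEO's 2016 annotation of the array, with 19070 carrying 1 symbol, 1043 several and 2164 none. Symbols were updated through Entrez identifiers, 19058 of which matched RefSeq (GRCh38.p14). The 62 control probe sets and 2 probe sets shared between PRIM2 and PRIM2BP were left out. Time means were fitted with limma 3.58.1 in R 4.3.3 (lmFit, eBayes; 4 residual and 3.68 prior degrees of freedom), two-sided, with Benjamini-Hochberg adjustment over 11963 genes. The fit was tested on simulated data in which 200 of 11963 genes changed at 24 h. It recovered 25.8% of changes of 0.3 log2 units, 65.9% of 0.5 and 94.1% of 1, and 4.12% of its calls were false. More genes were called in the real data at 24 h, so these shares need not hold there.

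The members and lists were chosen with earlier results of these data known. Array values were given for 24 members, the 16 called ones with the largest change at 24 h and 8 others named by rule. Other lists were given by up to 4 called genes in each direction at a comparison. Alternatives were a variance trend, brightness filters, other probe set rules, other scalings, the replicate block, fits of 2 groups and leaving out each array.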

Additional observations from a re-analysis of the deposited data

Results flagged for a closer look

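TK1 and FEN1 were picked out because their change at 24 h differed from that at 6 h by a test of the difference itself, the limma comparison of the 2 times. TK1 was higher at 24 h than at 6 h by 0.302 and FEN1 by 0.2686 on the log2 scale. The limma adjusted p values were 0.0361 and 0.0425, and over 17 gene-level alternatives they ran from 0.00268 to 0.223 for TK1, called in 8, and from 0.00087 to 0.229 for FEN1, called in 4. A second probe set of FEN1 gave 0.14 (adjusted p = 0.386 with every probe set tested on its own). Both arrays of 24 h were above both arrays of 6 h for each gene. Groups of 2 arrays are too small to test for single outlying arrays.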

How the results depend on the processing

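As reported, 0, 7 and 11 members were called at 6, 12 and 24 h against 0 h, 0 from 6 to 12 h, 0 from 12 to 24 h, 2 from 6 to 24 h and 7 by the F-test. A variance prior with an intensity trend called 4, 17 and 14 members at 6, 12 and 24 h, then 2, 11, 6 and 21 in the other tests, where 10.1%, 25% and 24.1% of all genes were called at 6, 12 and 24 h, then 6.3%, 3.38%, 8.69% and 27.9%. Without the dimmer 50% of genes, which leaves 5981 genes and 43 members, the counts were 3, 17 and 14, then 3, 12, 9 and 23, where 22.1%, 45.3% and 44.3% of the genes kept were called, then 14.5%, 7.77%, 17.3% and 50.9%. Without the dimmest 25% they were 2, 12 and 12 against 0 h and 13 by the F-test, where 8.65%, 29.8%, 29.1% and 30.1% of the genes kept were called. With each array centred on its median 3 members were called at 12 h (1 higher, 2 lower), 1 from 6 to 24 h and 3 by the F-test. Of all genes 17.6%, 2.42% and 15.4% were called there. With further quantile normalization the split at 12 h was 3 higher and 2 lower, where 16.9% of all genes were called. From 6 to 24 h, the mean of all probe sets and the probe set with the largest variance each called 1 member. Of all genes they called 2.98% and 2.28%. Every probe set tested on its own called 0, against 1.48% of all probe sets. With fits of only the 2 groups compared, which leave fewer arrays, 2, 6 and 0 members were called at 12 h, at 24 h and from 6 to 24 h. Of all genes 14.4%, 14.2% and 1.54% were called in these fits. Leaving out single arrays gave 0 to 8 calls at 12 h, 2 to 8 at 24 h, 0 to 1 from 6 to 24 h, 0 to 8 by the F-test and 0 in the other tests. The cause of these shifts was not tested. In the comparison in which it was called, none of the 16 members called against 0 or 6 h changed direction in any gene-level alternative, and the median from 12 to 24 h stayed between 0.11 and 0.16. A replicate block called 0, 3 and 7 members at 6, 12 and 24 h, 0 from 6 to 24 h and 3 by the F-test. With it 2.27%, 15.8% and 15.5% of all genes were called at 6, 12 and 24 h, then 1.31% and 11.3%. Arrays of the same replicate number did not deviate together (r from -0.1126 to 0.0855 over genes). The labels state no pairing, and with 2 arrays per time these correlations cannot show whether the numbers pair the samples. With 2 arrays per time, a missing call does not show that a gene was unchanged.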
